A study of Mus musculus with 24 samples.

Results

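The genes described are the 3 developmental myosins of skeletal muscle, Myh3, Myh8 and Myl4, out of 18193 genes that the array measures with at least 1 probe set naming them alone. Members were taken as every probe set whose platform annotation gives exactly 1 symbol, that of a member, which left 4 probe sets: 1427115_at for Myh3, 1426650_at for Myh8, and 1422580_at and 1457126_at for Myl4. Myosin, the motor protein of the sarcomere, is built of heavy chains that pull on actin and light chains that bind the neck of each heavy chain. Myh3 encodes the embryonic heavy chain, Myh8 the perinatal heavy chain, and Myl4 an essential light chain of embryonic skeletal muscle that is also the essential light chain of the cardiac atria. In limb muscle these isoforms give way to adult ones after birth and are made again by regenerating fibres, which form when satellite cells, the stem cells of muscle, become myoblasts and fuse after injury.

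RNA was taken from the gastrocnemius, a calf muscle, and from the heart of 12 male mice aged 2 months, and each RNA was read on 1 Affymetrix mouse array, 24 arrays in all. Each tissue held 4 genotypes with 3 arrays each. Cmah KO mdx mice lack both Cmah, the enzyme that makes the sialic acid N-glycolylneuraminic acid, and dystrophin, the protein missing in Duchenne muscular dystrophy; mdx mice lack dystrophin alone; Cmah KO mice lack the enzyme alone; and wild type mice have both. Cmah KO mdx and mdx mice carry the strain label C57BL6/10J, whereas Cmah KO and wild type mice carry C57BL/6J. Strain and dystrophin loss therefore cannot be told apart in any comparison across dystrophin genotype, nor in the interaction of both genes. No label names a promoter, a clone or a pool of animals. In bulk tissue fewer cells of a type and less RNA per cell cannot be told apart.

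Values are log2 of the deposited intensity. The dystrophin gene Dmd, which checks the labels, lay at 7.54 to 8.57 in Cmah KO mdx and 8.06 to 8.59 in mdx gastrocnemius, against 9.99 to 10.24 in Cmah KO and 10.06 to 10.26 in wild type gastrocnemius. In heart it lay at 8.16 to 8.81 in Cmah KO mdx and 8.44 to 9.12 in mdx, against 8.01 to 10.09 in Cmah KO and 9.89 to 10.07 in wild type, and the library labelled Cmah KO replicate 3, at 8.01, read below every mdx heart and so went against its label in this check. The Cmah probe set overlapped between the genotypes with and without the gene in both tissues; whether it lies in the deleted part is not known, so it checks nothing. Summed markers of skeletal muscle fibres overlapped between the 4 genotypes in gastrocnemius (66800 to 84200 intensity over 12 arrays). Summed markers of cardiomyocytes were higher on every heart array (42700 to 74200) than on any gastrocnemius array (21300 to 28000). The list holds Myl2 and Myl3, which were bright in gastrocnemius too, so its presence alone does not mark heart. A pair of heart arrays stood apart in quality, Cmah KO mdx replicate 2 and Cmah KO replicate 3, with 3' minus 5' Gapdh differences of 4.43 and 4.29, against 0.44 to 1.60 on the other 10 heart arrays and 0.36 to 1.02 in gastrocnemius. The changes of Myh3 and Myl4 in heart with dystrophin loss, and the tissue differences of the mean changes, are given with and without them. In gastrocnemius, Cmah KO replicate 1 and wild type replicate 3 read highest for Myh6, the cardiac heavy chain (11.38 and 10.11). Tnni3, the cardiac troponin I, read 9.40 and 8.51 there, and they are called here the arrays with cardiac transcripts. Myh6 was graded over the other 10 arrays (4.37 to 8.99), with Cmah KO mdx replicate 1 (8.99) and mdx replicate 1 (8.61) next. The changes in gastrocnemius are given without this pair as well, which leaves out only arrays with dystrophin.

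Myh3 and Myh8 lie on chromosome 11 in the same cluster of heavy chain genes, with the adult fast chains Myh2, Myh1 and Myh4 between them, and Myl4 lies elsewhere on that chromosome. The 250 bases before the start used in RefSeq's promoter table for each heavy chain gene (GRCm38.p6, plus strand) are shown because both genes moved together while their neighbours between them did not pass the test. The windows are chr11:67078050-67078299 for Myh3 and chr11:67276874-67277123 for Myh8. Capitals mark matches, on either strand, to the E-box CANNTG, which binds myogenic regulators such as MyoD and myogenin, to TATAAA, and to the MEF2 motif.
Myh3: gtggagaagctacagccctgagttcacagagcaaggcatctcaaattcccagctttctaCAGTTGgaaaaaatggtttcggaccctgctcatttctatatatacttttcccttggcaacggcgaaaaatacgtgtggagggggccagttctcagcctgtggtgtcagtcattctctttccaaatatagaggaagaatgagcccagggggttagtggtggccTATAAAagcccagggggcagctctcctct
Myh8: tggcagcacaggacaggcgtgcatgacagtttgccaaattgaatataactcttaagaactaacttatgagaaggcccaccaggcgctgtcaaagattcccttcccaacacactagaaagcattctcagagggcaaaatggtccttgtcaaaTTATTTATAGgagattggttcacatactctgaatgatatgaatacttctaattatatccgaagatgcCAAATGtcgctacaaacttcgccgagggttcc
Distances are counted back from the end of the window. By RefSeq's gene table the Myh3 gene already begins at base 67078273, inside its window, so the Myh3 distances do not refer to that start. In Myh3 the E-box began 191 bases and the TATAAA match 29 bases before the end of the window. In Myh8 an E-box began 32 bases before the start, and a TATAAA match on the reverse strand, at 96 bases, lay inside a MEF2 match that began at 99 bases. Neither window held the MCAT core CATTCC or a CArG box. Of 32851 mouse windows of the same length, 66.2% held an E-box, 12.4% TATAAA, 12.6% CATTCC, 2.92% a MEF2 match and 1.47% a CArG box. The RefSeq window of Myl4 held none of these letters; it overlaps the gene Cdc27 and is not shown.

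In dystrophin-deficient gastrocnemius all 3 genes were higher than in muscle with dystrophin. Averaged over both Cmah backgrounds, Myh3 was 13.0-fold and Myl4 5.51-fold higher, and Myh8 20.3-fold, a size that depends on dim readings. Differences between muscle without and with Cmah did not pass the test for any of the 3. No change with genotype passed in heart, where both heavy chains were dim and Myl4 was bright on every array.

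Myh3, the embryonic heavy chain, read 10.13, 11.59 and 11.29 log2 intensity in Cmah KO mdx and 10.33, 11.32 and 10.37 in mdx gastrocnemius, against 7.07, 6.48 and 6.78 in Cmah KO and 7.60, 7.54 and 7.34 in wild type gastrocnemius. All 6 arrays without dystrophin lay above all 6 arrays with it, and no array with dystrophin fell to the dim range below 4.66, the 40th percentile of the tissue. Dystrophin loss was read as the mean of its change in both Cmah backgrounds, and by that measure Myh3 rose by 3.70 ± 0.28 log2 (SE; 95% interval 3.08 to 4.32; limma adjusted p = 0.000372). Myh3 had the rank 2 by p among 29518 probe sets tested in that comparison.

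Myh8, the perinatal heavy chain, read 8.58, 8.96 and 9.93 in Cmah KO mdx and 8.57, 9.73 and 10.31 in mdx gastrocnemius, against 4.93, 4.48 and 4.10 in Cmah KO and 5.11, 5.02 and 6.37 in wild type gastrocnemius. The arrays with and without dystrophin did not overlap here either. Without dystrophin loss the gene was close to the dim limit of 4.66, and in Cmah KO only 1 of 3 arrays lay above it. The mean change with dystrophin loss was 4.35 ± 0.37 (95% interval 3.53 to 5.16; limma adjusted p = 0.000585). Across 9 alternative fits the change ran from 3.38, with 32 added to each intensity before the logarithm, to 4.70, and passed in each (limma adjusted p of at most 0.00175).

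Myl4, the embryonic and atrial light chain, read 11.66, 12.26 and 12.86 in Cmah KO mdx and 11.62, 12.50 and 11.99 in mdx gastrocnemius, against 9.31, 10.47 and 9.73 in Cmah KO and 9.49, 10.00 and 9.12 in wild type gastrocnemius. It was already well above the dim limit in muscle with dystrophin, and again the 6 arrays without dystrophin all lay higher. Its mean change was 2.46 ± 0.29 (95% interval 1.82 to 3.10; limma adjusted p = 0.00474). The other Myl4 probe set, 1457126_at, was too dim to be tested in gastrocnemius: it lay between 4.12 and 5.21 in the 6 arrays without dystrophin and between 3.18 and 4.84 in the 6 with it, so the groups overlapped. Its mean change of 0.71 did not pass when all probe sets were tested (limma adjusted p = 0.417). This probe set also stayed between 4.00 and 5.16 in heart, where 1422580_at read 9.91 to 13.11. It was thus dim even where the other was bright, and 0.71 is not a second estimate of the size.

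All 3 members therefore passed in the mean comparison, in which 0.725% of the 29518 probe sets tested rose past the threshold and 1.20% were higher without overlap between the 6 arrays of each kind. Without Cmah KO replicate 1 and wild type replicate 3, the arrays with cardiac transcripts, the mean changes were 3.74 ± 0.33 for Myh3, 4.67 ± 0.38 for Myh8 and 2.22 ± 0.31 for Myl4, and all passed (limma adjusted p of 0.00154, 0.000964 and 0.0203), while 86 probe sets passed in either direction instead of 253. Before adjustment 2986 probe sets had a p under 0.05.

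**Figure D1:**
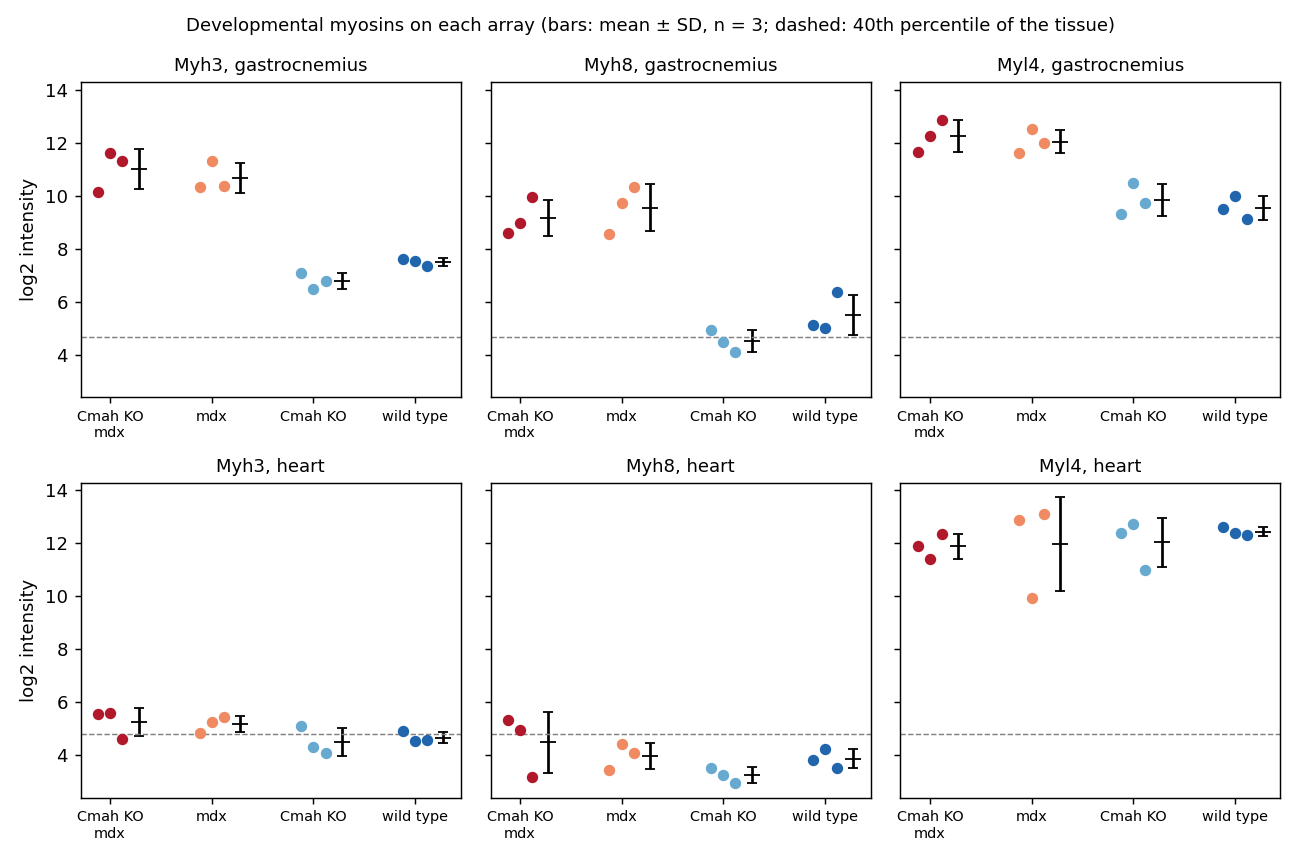
Log2 intensity of Myh3, Myh8 and Myl4 on each array of gastrocnemius (upper row) and heart (lower row) in the 4 genotypes; black bars are means ± SD (n = 3) and the dashed line is the 40th percentile of the tissue (4.66 in gastrocnemius, 4.78 in heart). In gastrocnemius the 6 arrays without dystrophin lie above the 6 with it for each gene, and in heart Myl4 ranges from 9.91 in mdx replicate 2 to 13.11.

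Each Cmah background gave a reading of its own, as means of 3 arrays against 3, and the mean above is built from both. The spread behind the p values below came from all 4 genotypes of gastrocnemius, not from the groups compared alone. With only the groups compared, the calls of Myh3 and Myh8 below were lost. The limma adjusted p was then 0.051 for each in Cmah KO mdx against Cmah KO. In mdx against wild type it was 0.179 for Myh3 and 0.34 for Myh8. In Cmah KO mdx against Cmah KO gastrocnemius, Myh3 rose by 4.23 ± 0.40 (18.7-fold, limma adjusted p = 0.00379) and Myh8 by 4.65 ± 0.53 (25.2-fold, adjusted p = 0.0116), while Myl4 differed by 2.42 ± 0.41 (5.35-fold, adjusted p = 0.0543) and missed the threshold. In this comparison 0.0915% of probe sets rose past the threshold and 7.27% were higher without overlap, as were all 3 members. In mdx against wild type gastrocnemius, Myh3 rose by 3.18 ± 0.40 (9.05-fold, limma adjusted p = 0.0363) and Myh8 by 4.04 ± 0.53 (16.4-fold, adjusted p = 0.0388), and Myl4 differed by 2.50 ± 0.41 (5.67-fold, adjusted p = 0.152). Without the 2 arrays with cardiac transcripts Myh3 missed the threshold in mdx against wild type (3.10, adjusted p = 0.115), and its call in the Cmah KO background and those of Myh8 in both were kept. In mdx against wild type 0.0136% of probe sets, 4 in number, rose past the threshold and 3.54% were higher without overlap.

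Most calls of the separate readings were lost when 1 array was left out, and those of the mean were not. Leaving out any 1 of the 12 gastrocnemius arrays kept the mean change of Myh3 between 3.54 and 3.92, of Myh8 between 4.15 and 4.59 and of Myl4 between 2.31 and 2.62, with limma adjusted p of at most 0.00291, 0.004 and 0.0198. In mdx against wild type, Myh3 missed the threshold without 10 of the 12 arrays in turn, and passed only without Cmah KO mdx replicate 1 or 2. Its adjusted p was 0.0764, 0.139 and 0.0578 without mdx replicates 1, 2 and 3, 0.0655, 0.0769 and 0.0802 without those of Cmah KO, 0.137, 0.144 and 0.0942 without those of wild type, and 0.0651 without Cmah KO mdx replicate 3. In the same comparison Myh8 missed it without 9 of the 12 arrays, and passed without Cmah KO mdx replicate 3, mdx replicate 1 or wild type replicate 3. Its adjusted p was 0.0543 and 0.0721 without Cmah KO mdx replicates 1 and 2, 0.196 and 0.0979 without mdx replicates 2 and 3, 0.0655, 0.0999 and 0.0802 without the replicates of Cmah KO, and 0.177 and 0.203 without wild type replicates 1 and 2. In Cmah KO mdx against Cmah KO, Myh3 passed without each of the 12 arrays in turn (adjusted p of at most 0.0441), and Myh8 missed the threshold without Cmah KO replicate 2 (0.0777) or 3 (0.114) and without Cmah KO mdx replicate 2 (0.0624) or 3 (0.0633).

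Loss of Cmah on its own went with no call for the 3 genes. Between Cmah KO and wild type gastrocnemius, Myh3 differed by -0.72 (95% interval -1.59 to 0.16), Myh8 by -0.99 (-2.14 to 0.15) and Myl4 by 0.31 (-0.59 to 1.21), each with a limma adjusted p of 1. All 3 Cmah KO arrays were lower than all 3 wild type arrays for Myh3 and for Myh8, a pattern in that direction that 1.45% of all probe sets showed. No probe set passed in this comparison (0.00% in either direction; 332 had an unadjusted p under 0.05 by limma, and 1 passed with quantile normalization, array weights, the replicate numbers as a block or the Gapdh difference as a covariate). In Cmah KO mdx against mdx gastrocnemius the differences were 0.33 for Myh3 (95% interval -0.54 to 1.21), -0.38 for Myh8 (-1.53 to 0.77) and 0.22 for Myl4 (-0.68 to 1.12), with overlap of the arrays in every case. Of all probe sets 0.00339%, 1 in number, passed in that comparison. Some other fits gave 2 (quantile normalization, or 32 added to each intensity), 3 (the replicate numbers as a block) or 5 (array weights). A p that misses the threshold does not show that the genotypes are alike.

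The interaction asks whether dystrophin loss changed a gene more without Cmah than with it. It was 1.05 for Myh3 (95% interval -0.19 to 2.29; unadjusted p = 0.09), 0.61 for Myh8 (-1.01 to 2.24) and -0.09 for Myl4 (-1.36 to 1.19), with limma adjusted p of 1 for each, and no probe set passed (0.00%; 311 had an unadjusted p under 0.05 by limma). The larger change of Myh3 in the Cmah KO background (4.23, against 3.18 with Cmah) is thus not shown to differ between the backgrounds. It has 2 parts of unlike direction: Myh3 averaged 11.01 ± 0.77 in Cmah KO mdx and 10.67 ± 0.56 in mdx, but 6.78 ± 0.30 in Cmah KO and 7.49 ± 0.14 in wild type gastrocnemius (SD, n = 3 each).

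**Figure D2:**
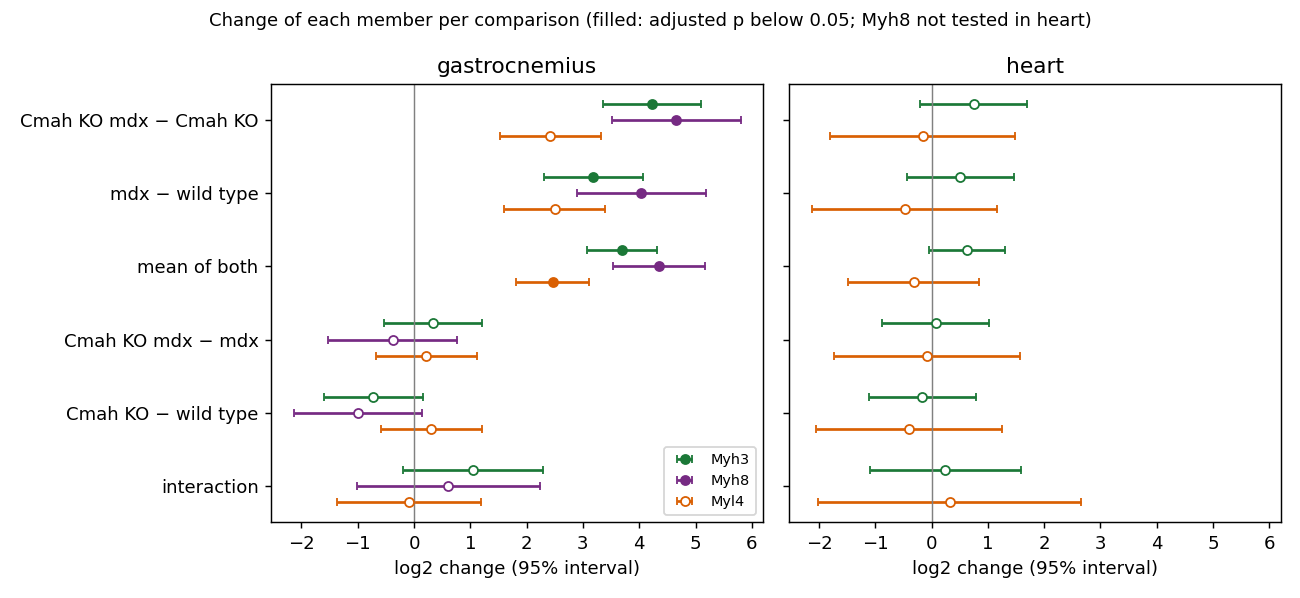
Log2 change of each gene, with its 95% interval, in 6 comparisons within gastrocnemius (left) and heart (right); filled points have a limma adjusted p below 0.05, and Myh8 was not tested in heart. All filled points belong to dystrophin loss in gastrocnemius, where the mean changes were 3.70, 4.35 and 2.46. Myl4 is filled there only for the mean and open in each separate Cmah background. The intervals of the Cmah comparisons, the interaction and all heart comparisons include 0.

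Which array read highest differed between the 3 genes. Among the 6 arrays without dystrophin, Myh3 was highest in Cmah KO mdx replicate 2 (11.59), Myh8 in mdx replicate 3 (10.31) and Myl4 in Cmah KO mdx replicate 3 (12.86). Over those 6 arrays Pearson's r was 0.82 between Myh3 and Myl4 (exact permutation p = 0.075; Spearman's rho 0.71, p = 0.136), 0.63 between Myh8 and Myl4 (p = 0.181; rho 0.66, p = 0.175) and 0.28 between Myh3 and Myh8 (p = 0.622; rho 0.37, p = 0.497). Leaving out the 2 arrays farthest from the median of the first gene gave r of 0.92, 0.95 and 0.33. Over the 6 arrays with dystrophin r was -0.54, -0.64 and 0.59 for the same pairs (exact permutation p of 0.289, 0.131 and 0.183), and without the 2 farthest arrays 0.56, -0.76 and -0.03, so that a sign turned for 2 of the 3 pairs. In a family of 9 relations the smallest adjusted p among these 6 was 0.209 for r, and none passed. Each set of 6 arrays pools both Cmah genotypes, and the permutations ran across them. With dystrophin, all Cmah KO arrays lay below all wild type arrays for Myh3 and Myh8. There r mixes the genotype difference with variation between arrays.

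**Figure D3:**
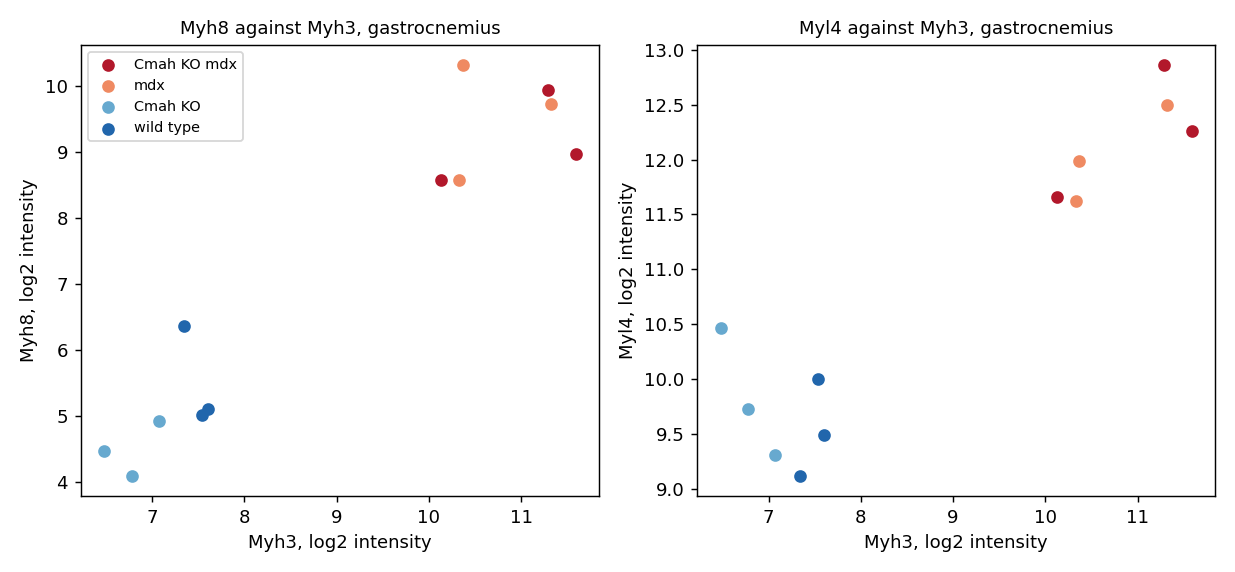
Myh8 (left) and Myl4 (right) against Myh3, in log2 intensity, 1 point for each of the 12 gastrocnemius arrays. The arrays form a low cloud with dystrophin and a high cloud without it, and within the high cloud the lowest Myh3 reading is 10.13 and the highest 11.59.

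Over all 12 gastrocnemius arrays, the genes most alike to each member largely share its split by dystrophin genotype, and Pearson's r over 12 arrays and 13232 genes is given here as a description. Those nearest Myh3 were Vash2 (r = 0.985), Mymk (0.979), Runx1 (0.970), Mmp12 (0.970) and Bgn (0.970). Mymk encodes myomaker, which drives the fusion of myoblasts, Runx1 a transcription factor raised in denervated and injured muscle, Mmp12 a protease of macrophages and Bgn a proteoglycan of the matrix. Those nearest Myh8 were Myh3 (0.951), Shisal1 (0.943), Vash2 (0.935), Runx1 (0.934) and Mymk (0.934). Those nearest Myl4 were Tubb2b, a beta tubulin (0.979), Timp1, an inhibitor of matrix proteases (0.965), Gpnmb, a macrophage glycoprotein (0.959), C3ar1, a complement receptor (0.956), and Ahnak2 (0.954). Myh3 itself stood at rank 17 for Myl4 (r = 0.930), and Myh8 at rank 59 (0.893).

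None of the other myosins tested in gastrocnemius passed. Of 6 other sarcomeric heavy chains tested none passed in the mean comparison for dystrophin loss, with changes between -0.33 and 0.12 and a median of -0.07, beside a median of -0.01 over all probe sets tested. The adult fast chains Myh2 and Myh1 and the fastest, Myh4, differed by -0.04 ± 0.17, 0.12 ± 0.17 and -0.06 ± 0.16, and the slow chain Myh7 by -0.13 ± 0.20. They are bright (means of 12.99, 13.07 and 13.74 over 12 arrays for Myh2, Myh1 and Myh4, where the highest value on any array is 14.4), and the part of that brightness in their small changes was not tested. The probe sets read for Myh1 and Myl3 carry suffixes (x and s) of sets that may also match related transcripts. Myh13 and Myh15 have no probe set that names them alone and were not analysed here. The cardiac chain Myh6 ranged from 4.37 to 11.38 over the 12 gastrocnemius arrays and differed by -0.08 ± 1.25.

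Among the other light chains 8 were tested and none passed, with changes between -0.49 and 0.24. Myl1, the adult fast essential chain, differed by -0.01 ± 0.18, Mylpf, the fast regulatory chain, by 0.01 ± 0.16, and the slow chains Myl2 and Myl3 by -0.29 ± 0.17 and -0.25 ± 0.18. The count of other myosins past the threshold was 0 in each of the alternative fits and without each array in turn, and also without the 2 arrays with cardiac transcripts. Their largest change of either sign stayed between 0.37 and 0.90 log2, except for 1.75 without those 2 arrays. The genes next to the members on chromosome 11, Sco1, Adprm and Gas7 around the heavy chain cluster and Cdc27, Kansl1 and Itgb3 around Myl4, differed by -0.06 to 0.35, and none passed. Myl7, the atrial regulatory chain, was too dim to be tested in gastrocnemius.

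**Figure D4:**
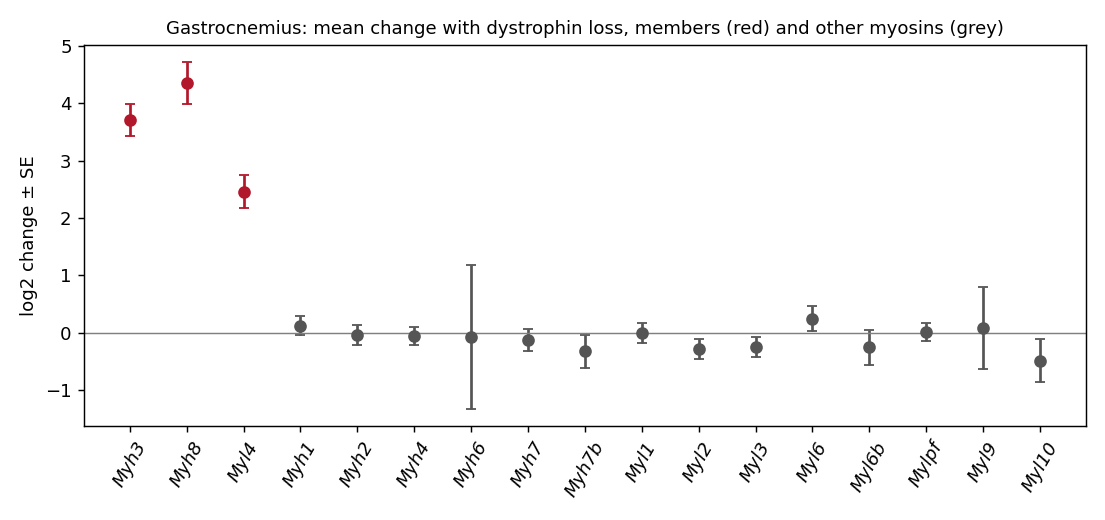
Mean log2 change with dystrophin loss ± SE in gastrocnemius for the 3 members (red) and the 14 other myosin genes tested (grey). The members lie at 2.46 to 4.35, and the others between -0.49 and 0.24.

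Some other proteins of embryonic and regenerating fibres also rose. Of 10 tested, 9 were higher and 2 rose past the threshold, beside 0.725% of all probe sets tested. The median change over the 10 was 0.82. Chrng, the embryonic gamma subunit of the acetylcholine receptor, rose by 2.11 ± 0.31 (limma adjusted p = 0.0113), and Igf2, a fetal growth factor, by 2.65 ± 0.46 (adjusted p = 0.027). Igf2 missed the threshold without 7 arrays in turn: Cmah KO mdx replicates 2 and 3 (adjusted p of 0.0862 and 0.0864), mdx replicates 2 and 3 (0.0895 and 0.0555), Cmah KO replicates 1 and 3 (0.0565 and 0.0657) and wild type replicate 2 (0.0739). Without the 2 arrays with cardiac transcripts Igf2 differed by 2.09 (0.0716). Chrng passed without each of the 12 in turn. Tnnt2, the embryonic and cardiac troponin T, differed by 2.79 ± 0.93 (adjusted p = 0.259). It read 10.29 to 11.60 in Cmah KO mdx and 9.56 to 10.42 in mdx gastrocnemius, against 6.39 and 6.40 in Cmah KO and 5.54 and 6.77 in wild type, but 10.62 or higher on Cmah KO replicate 1 and wild type replicate 3. Without these 2 it differed by 4.30 ± 0.35 (limma adjusted p = 0.000964). Both are arrays with dystrophin, and the highest of these for Tnnt2, whereas Cmah KO mdx replicate 1, with the highest Tnnt2 (11.60) and a Myh6 of 8.99, was kept. Leaving them out could only widen the difference, so the p without them adds no support for a rise. The part of cardiac transcripts in this difference was not tested. Ncam1, an adhesion molecule of immature fibres, differed by 1.20 ± 0.31 (0.126) in its brightest probe set, which is the one counted. A dimmer one, with a mean of 4.19 below the dim limit, rose by 2.00 ± 0.24 (0.00492). The other Ncam1 probe sets tested differed by 0.19 to 1.76, and none passed. Among 13 myogenic regulators and fusion proteins tested 10 were higher and 2 rose past the threshold, beside the same 0.725%, with a median of 0.48. Mymk rose by 3.54 ± 0.40 (adjusted p = 0.00466) and Mymx, the myomixer that acts with it in fusion, by 5.47 ± 0.72 (adjusted p = 0.00716), both from dim levels (3.99 and 4.29 on average with dystrophin), which makes the sizes uncertain. Mymk lay between 6.23 and 8.46 on arrays without dystrophin and between 3.65 and 4.86 on arrays with it. Mymx lay between 8.16 and 11.32 without dystrophin. With it Mymx spread from 2.59 to 7.41, the highest on Cmah KO replicate 1, so that it was not dim on every such array. Myog, the myogenin of differentiating myoblasts, differed by 1.84 ± 0.50 (adjusted p = 0.144), Myod1 by 0.91 ± 0.36 (0.38) and the satellite cell gene Pax7 by 0.67 ± 0.36 (0.625). None of 6 myosin chaperones and modifiers passed, with a median of -0.30; Unc45b, which folds the myosin head, differed by -0.08 ± 0.17.

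Markers of other cells that a muscle sample can hold were read in the same way. Summed intensities of 9 macrophage markers were 10600 to 26700 in Cmah KO mdx and 12500 to 20300 in mdx gastrocnemius, against 4190 to 6280 in Cmah KO and 4440 to 10600 in wild type gastrocnemius. Of 8 tested all were higher and 2 rose past the threshold, beside 0.725% of all probe sets tested. These were Gpnmb, by 3.22 ± 0.40 (limma adjusted p = 0.00533), and Lgals3, by 3.07 ± 0.36 (adjusted p = 0.00474). A dimmer probe set of Csf1r, a growth factor receptor of macrophages, also passed (1.34 ± 0.27, limma adjusted p = 0.0466). Its brightest, which is the one counted (1.06, 0.0511), and another of Csf1r (1.01, 0.319) did not. A dimmer probe set of Gpnmb did not pass either (2.51, 0.0616). The macrophage sums of arrays with and without dystrophin touched at 10600. Summed markers of satellite cells and myoblasts were 2430 to 4880 in Cmah KO mdx and 2070 to 4550 in mdx, against 1000 to 1950 in Cmah KO and 863 to 2750 in wild type gastrocnemius, with overlap and none of 5 past the threshold. Smooth muscle markers summed to 2210 to 4110 in Cmah KO mdx and 2060 to 3580 in mdx, against 1530 to 3640 in Cmah KO and 1490 to 3200 in wild type gastrocnemius, with overlap and none of 4 past it. No defining marker of either list lay below the dim limit on all arrays. The part of any of these cell types in the change of the 3 genes was not tested.

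In heart the 2 heavy chains were dim. Myh3 read 5.54, 5.58 and 4.62 in Cmah KO mdx and 4.85, 5.24 and 5.43 in mdx hearts, against 5.08, 4.31 and 4.09 in Cmah KO and 4.90, 4.52 and 4.57 in wild type hearts, around the dim limit of 4.78. The groups overlapped. The mean change with dystrophin loss was 0.63 ± 0.31 (95% interval -0.04 to 1.30; limma adjusted p = 0.999), beside a median of 0.113 over all probe sets tested, and 0.45 without the pair of arrays of low quality. Over all arrays the change was 0.75 in the Cmah KO background and 0.51 with Cmah present. Without that pair it was 0.39 in the Cmah KO background and 0.51 with Cmah present. Myh8 read 5.33, 4.95 and 3.17 in Cmah KO mdx and 3.45, 4.42 and 4.07 in mdx hearts, against 3.52, 3.26 and 2.93 in Cmah KO and 3.82, 4.24 and 3.52 in wild type hearts. Only 2 of its 12 readings passed the dim limit, so it was not tested. None of 29421 probe sets passed in any heart comparison by limma (0.00% called), and between 103 and 568 had an unadjusted p under 0.05 in each. With array weights 133 passed in mdx against wild type, 19 in Cmah KO mdx against mdx and 1 in Cmah KO against wild type. Neither Myh3 nor Myl4 was among them. Markers of skeletal muscle fibres, which a heart sample could hold, summed to 548 to 11100 in Cmah KO mdx and 5840 to 18800 in mdx hearts, against 7610 to 14300 in Cmah KO and 3290 to 21800 in wild type hearts.

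Myl4 was bright in heart: 11.87, 11.40 and 12.34 in Cmah KO mdx and 12.85, 9.91 and 13.11 in mdx hearts, against 12.37, 12.73 and 10.99 in Cmah KO and 12.61, 12.37 and 12.32 in wild type hearts. The genotypes overlapped, and mdx replicate 2 was the lowest of the 12. Its mean change with dystrophin loss was -0.32 ± 0.54 (95% interval -1.49 to 0.85; limma adjusted p = 0.999), and 0.19 without mdx replicate 2. Over all arrays the change was -0.16 in the Cmah KO background and -0.48 with Cmah present. Without the pair of low quality the mean change was -0.46, with -0.44 in the Cmah KO background and -0.48 with Cmah present. The difference between Cmah KO mdx and mdx hearts was -0.08 (-1.74 to 1.57), and between Cmah KO and wild type hearts -0.40 (-2.05 to 1.25), beside medians of -0.136 and -0.37 over all probe sets tested. Without that pair these were 0.15 and 0.12. The other probe set of Myl4 stayed dim in heart as well, between 4.00 and 5.16 over the 12 arrays.

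Myl4 varied between hearts together with the atrial light chain Myl7. Myl7 read 10.64, 11.18 and 12.70 in Cmah KO mdx and 13.01, 8.08 and 12.83 in mdx hearts, against 11.34, 12.71 and 9.72 in Cmah KO and 12.31, 11.45 and 12.43 in wild type hearts. Pearson's r over the 12 hearts was 0.94 (permutation p = 0.0001, 0.0009 adjusted over 9 relations) and Spearman's rho 0.88 (p = 0.0005, adjusted 0.0045). Without the 2 hearts farthest from the median of Myl7, mdx replicate 2 and Cmah KO replicate 3, r was 0.78, and without the pair of low quality it was 0.95. Myl4 against Nppa, the atrial natriuretic peptide, gave r = 0.68 (adjusted permutation p = 0.126) and against Sln, sarcolipin, 0.65 (adjusted p = 0.209), neither of which passed. With 3 hearts per genotype no value within a genotype was computed. The atrial markers Bmp10 and Gja5 lay below the dim limit on all arrays. In mdx replicate 2, the ventricular light chains Myl2 and Myl3 read 13.46 and 13.68 while Myl4 and Myl7 were lowest. How much atrium each sample held is not given by the labels and was not tested.

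**Figure D5:**
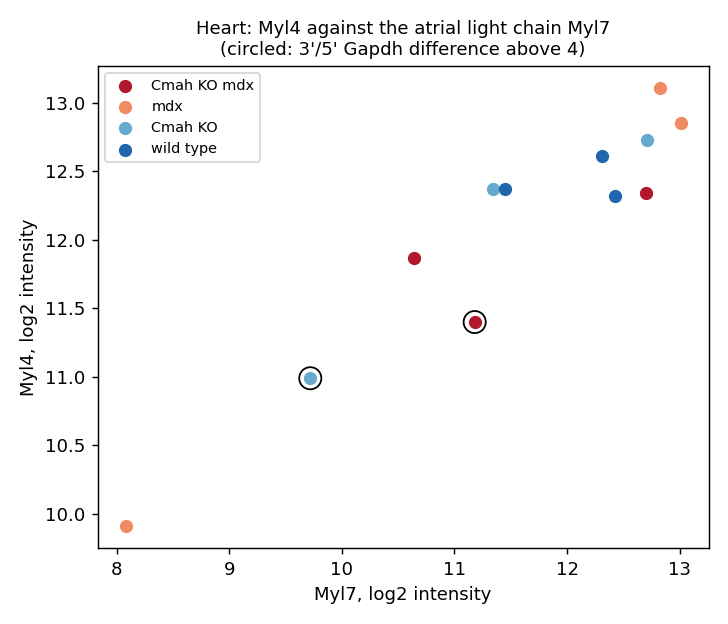
Myl4 against Myl7 in log2 intensity, 1 point per heart, coloured by genotype; circles mark the 2 arrays with a 3' minus 5' Gapdh difference above 4. The points run from mdx replicate 2 (Myl7 8.08, Myl4 9.91) to the other mdx hearts (Myl7 12.83 and 13.01), and points of the 4 genotypes intermingle.

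For the comparison of tissues all 24 arrays were fitted together, and the animal that gave both was treated as a random block. Myh3 was higher in gastrocnemius than in heart in every genotype, by 5.76 ± 0.37 in Cmah KO mdx, 5.50 ± 0.37 in mdx, 2.29 ± 0.37 in Cmah KO and 2.83 ± 0.37 in wild type (limma adjusted p of 5.91e-09, 6.96e-09, 0.000329 and 2.16e-05). Of 31070 probe sets, 5.64%, 3.32%, 6.41% and 3.41% were higher in gastrocnemius past the threshold in these genotypes. Myh8 was higher by 4.67 ± 0.50 in Cmah KO mdx and 5.56 ± 0.50 in mdx (adjusted p = 1.34e-06 and 1.67e-07), and differed by 1.27 ± 0.50 in Cmah KO (adjusted p = 0.11) and 1.64 ± 0.50 in wild type (0.0503). The heart side of these is dim: 2 of 3 Cmah KO mdx hearts and 0 of 3 mdx hearts lay above the limit of 4.78, and with 32 added to each intensity the differences were 3.41 in Cmah KO mdx and 4.02 in mdx. Myl4 showed the opposite order in muscle with dystrophin, with a gastrocnemius minus heart difference of -2.19 ± 0.56 in Cmah KO (adjusted p = 0.0151) and -2.90 ± 0.56 in wild type (0.00155), a direction in which 3.11% and 3.35% of probe sets passed. In Cmah KO mdx and mdx it differed by 0.39 (95% interval -0.77 to 1.55) and 0.08 (-1.07 to 1.24) between the tissues. The Cmah KO call of Myl4 was lost without gastrocnemius Cmah KO replicate 1 (adjusted p = 0.0759) or 3 (0.0553), and without both arrays with cardiac transcripts (-1.89, 0.0841).

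Ordered by mean over the 8 conditions, Myh3 ran from Cmah KO mdx and mdx gastrocnemius (11.01 ± 0.77 and 10.67 ± 0.56), whose arrays overlap, to wild type and Cmah KO gastrocnemius (7.49 ± 0.14 and 6.78 ± 0.30) and then the 4 overlapping heart groups (4.49 to 5.25). For Myh8, mdx gastrocnemius (9.54 ± 0.89) came first and Cmah KO mdx gastrocnemius (9.16 ± 0.70) next, within each other's spread, followed by wild type gastrocnemius (5.50 ± 0.76), and Cmah KO gastrocnemius (4.51 ± 0.42) lay beside Cmah KO mdx heart (4.48 ± 1.15). For Myl4 the first 6 places, from wild type heart (12.43 ± 0.15) to Cmah KO mdx heart (11.87 ± 0.47), overlapped and mixed both dystrophin-deficient gastrocnemius groups (12.26 ± 0.60 and 12.04 ± 0.44) with all hearts. Cmah KO (9.84 ± 0.59) and wild type gastrocnemius (9.53 ± 0.44) followed lower, and overlapped each other (SD, n = 3 throughout).

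The change with dystrophin loss differed between the tissues. The mean change in gastrocnemius exceeded that in heart by 3.07 ± 0.37 for Myh3 (limma adjusted p = 0.000784), 3.66 ± 0.50 for Myh8 (0.000827) and 2.78 ± 0.56 for Myl4 (0.021), in a comparison in which 0.444% of probe sets passed in that direction. For Myh3 the difference also passed in the Cmah KO background (3.47 ± 0.53, adjusted p = 0.0237, where 0.0547% passed upward), and not with Cmah present (2.67 ± 0.53, 0.171), where 0.00% passed by limma and 727 probe sets had an unadjusted p under 0.05. Myh8 differed by 3.41 ± 0.70 (0.0786) without Cmah and 3.92 ± 0.70 (0.122) with it. Myl4 differed by 2.58 ± 0.79 (0.349) without Cmah and 2.98 ± 0.79 (0.632) with it. The call of Myh3 in the Cmah KO background was lost without gastrocnemius Cmah KO mdx replicate 2 (adjusted p = 0.138) or 3 (0.137), gastrocnemius Cmah KO replicate 1 (0.0549), 2 (0.0642) or 3 (0.0839) and heart Cmah KO replicate 1 (0.0519). That of Myl4 in the mean was lost without gastrocnemius Cmah KO mdx replicate 3 (0.0575), mdx replicate 2 (0.0589), Cmah KO replicate 1 (0.0521) or wild type replicate 3 (0.052). The mean differences of Myh3 and Myh8 passed without each of the 24 arrays in turn. Without the pair of hearts of low quality all 3 mean differences passed as well, at 3.24 for Myh3, 3.79 for Myh8 and 2.88 for Myl4 (limma adjusted p of 0.000267, 0.00171 and 0.0144). Without the 2 gastrocnemius arrays with cardiac transcripts Myh3 (3.08) and Myh8 (3.95) passed at an adjusted p of 0.00178 each, and Myl4 (2.53) did not (0.111). The heart side of the Myh8 difference rests on readings of which 10 of 12 lay below the dim limit.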

How the data were processed

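The deposited table holds linear intensity for 45101 probe sets on 24 arrays, which the authors made with GCOS and RMA, per the submitters' processing notes; versions are not given in the sources used here. Per the labels' protocols, 25 ng of total RNA was amplified and labelled with the NuGen Ovation kit. Array medians lay between 41.9 and 50.7. Precision is limited by the number of arrays.

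After 64 control probe sets were set aside, log2 values were fitted per tissue on 4 group means with limma 3.58.1 in R 4.3.3 (lmFit, eBayes, two-sided). Testing required that 3 or more of the 12 arrays exceed the 40th percentile of the tissue, here called the dim limit. An adjusted p (Benjamini-Hochberg over all probe sets tested) below 0.05 was required. The tissue difference was fitted over 24 arrays with animal, taken from the number in the labels, as a random block (consensus correlation 0.217). Other genes were read from their brightest probe set with 1 symbol. Members, gene lists and tests were chosen with earlier results of these data known. Named are the members, list genes that passed or that define a list, neighbours, and the 5 genes most alike to each member. Correlations used exact permutation (6 arrays) or random permutation (12 arrays). Promoters and names came from RefSeq tables of GRCm38.p6; the array annotation names no assembly.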

Additional observations from a re-analysis of the deposited data

Results flagged for a closer look

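4 results are singled out because the change with dystrophin loss differed between gastrocnemius and heart by the test of the difference itself (limma, animal as a random block). Averaged over both Cmah backgrounds, the change of Myh3 was larger in gastrocnemius by 3.07 ± 0.37 log2 (adjusted p = 0.000784), that of Myh8 by 3.66 ± 0.50 (0.000827) and that of Myl4 by 2.78 ± 0.56 (0.021). In the Cmah KO background alone the difference for Myh3 was 3.47 ± 0.53 (0.0237). The mean differences of Myh3 and Myh8 passed without each of the 24 arrays in turn. That of Myl4 was lost without 4 of them (adjusted p of 0.052 to 0.0589), with no block for the animal (0.0839) and without the 2 gastrocnemius arrays with cardiac transcripts (2.53, 0.111). That of Myh3 in the Cmah KO background was lost without 6 of the 24 (adjusted p of 0.0519 to 0.138) and with no block for the animal (0.0654).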

How the results depend on the processing

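Changes are log2, with limma adjusted p in brackets. The mean change of Myh3 and Myh8 in gastrocnemius with dystrophin loss passed under all 9 alternatives and without each array, and that of Myl4 under all but its dim other probe set (0.71, 0.417). The cause was not tested for any change below, apart from fewer arrays in the fit. For mdx against wild type gastrocnemius, Myh8 gave 4.04 without a filter (0.0581), and with only the groups compared Myh3 gave 3.18 (0.179) and Myh8 4.04 (0.34). For Cmah KO mdx against Cmah KO these gave 4.23 and 4.65 (0.051 each). Myl4 in that comparison passed with quantile normalization (2.44, 0.0449), log2(intensity + 32) (2.38, 0.0479), trend and robust variance (2.42, 0.034), array weights (2.65, 0.00546) and the Gapdh covariate (2.45, 0.0195; 2.54 and 0.045 in mdx against wild type).

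Probe sets past the threshold in gastrocnemius numbered 5 for mdx against wild type (8 quantile, 9 weights, 13 Gapdh, 0 groups compared), 33 for Cmah KO mdx against Cmah KO (539 weights, 153 Gapdh, 2 groups compared) and 253 for the mean (860 weights, 746 Gapdh). With weights, heart mdx against wild type gave 133, Cmah KO mdx against mdx 19 and Cmah KO against wild type 1.

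Signs within error turned for Myl4 in gastrocnemius: interaction 0.04 (weights) and 0.56 (other probe set), -0.73 for Cmah KO against wild type and -0.17 for Cmah KO mdx against mdx (other probe set). In heart they turned for Myl4 in mdx against wild type (0.05, weights), the interaction (-0.60 weights, -0.06 other probe set), Cmah KO against wild type (0.17 Gapdh, 0.13 other probe set, 0.12 without the low-quality pair) and Cmah KO mdx against mdx (0.00 quantile, 0.52 Gapdh, 0.07 other probe set, 0.15 without the pair). For Myh3 in heart they turned without the pair (0.03, -0.09 and, in the interaction, -0.13). Leaving out the pair was chosen after seeing the data.

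For gastrocnemius minus heart, log2(intensity + 32) gave calls with Cmah present for Myh3 (2.72, 0.0144) and Myh8 (3.26, 0.0144), 3 probe sets in all, and for Myh8 in the Cmah KO background (3.00, 0.0189). The wild type level of Myh8 passed at 1.64 with trend and robust variance (0.0477) and without the pair (0.0302). The Cmah KO background count of 17 was 6 without a filter; without the pair, 8 probe sets passed with Cmah and 328 in the mean. With no replicate block for the animal, Myh3 in the Cmah KO background gave 3.47 (0.0654; 0 probe sets) and Myl4 in the mean 2.78 (0.0839; 67 probe sets).

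Without the 2 gastrocnemius arrays with Myh6 above 10 (both with dystrophin, and chosen after seeing the data), Myh3 in mdx against wild type gave 3.10 (0.115). Probe sets passing in gastrocnemius were 8 for mdx against wild type, 16 for Cmah KO mdx against Cmah KO, 86 for the mean, 2 for Cmah KO mdx against mdx and 1 for the interaction. Between the tissues they were 2 with Cmah, 11 in the Cmah KO background and 80 in the mean; Myl4 gave 2.53 in the mean (0.111) and -1.89 as its Cmah KO level (0.0841).

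The replicate numbers paired the samples at most in part. Same-numbered arrays correlated in their deviations between -0.577 and 0.615 in gastrocnemius (median 0.175, against -0.092 for unlike numbers). In heart they correlated between -0.418 and 0.645 (median 0.002, against -0.054). Gastrocnemius replicates 1 of Cmah KO, mdx and Cmah KO mdx correlated with each other at 0.597 to 0.615. Arrays of unlike number correlated as highly: gastrocnemius wild type replicate 3 with replicates 1 of the other genotypes at 0.564 to 0.617, and the hearts of the same 4 animals at 0.387 to 0.645. These 4 gastrocnemius arrays also had the highest Myh6 readings (8.61 to 11.38) and the highest Gapdh differences (0.76 to 1.02) of that tissue. What else they share is not given by the labels, and no fit blocked on it. With the numbers as a replicate block, Myh3 in mdx against wild type missed the threshold (3.18, 0.0637) and Myl4 in Cmah KO mdx against Cmah KO passed (2.42, 0.0452).

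Leaving out 1 array at a time gave these ranges. In gastrocnemius, mdx against wild type ran from 2.85 to 3.35 for Myh3 and 3.65 to 4.52 for Myh8 (1 to 9 probe sets), Cmah KO mdx against Cmah KO from 4.27 to 4.94 for Myh8 and 2.12 to 2.74 for Myl4 (2 to 70 probe sets), and the mean had 70 to 392 probe sets. Cmah KO mdx against mdx ran from -0.86 to 0.01 for Myh8 and -0.08 to 0.52 for Myl4, Cmah KO against wild type from -0.01 to 0.57 and the interaction from -0.38 to 0.23 for Myl4. In heart, Myl4 ran from -0.68 to 0.19 for Cmah KO mdx against Cmah KO, -1.05 to 0.55 for mdx against wild type, -0.61 to 0.19 for the mean, -1.11 to 0.49 for Cmah KO mdx against mdx, -0.75 to 0.12 for Cmah KO against wild type and -0.71 to 0.89 for the interaction. Myh3 in heart ran from -0.09 to 0.38 for Cmah KO mdx against mdx and -0.46 to 0.03 for Cmah KO against wild type. Between the tissues, the change in the Cmah KO background ran from 3.10 to 3.94 for Myh3 and 2.77 to 3.89 for Myh8 (0 to 61 probe sets) and the mean from 2.29 to 3.04 for Myl4 (78 to 307 probe sets). The probe sets passing with Cmah present numbered 0 to 3. The level of Myl4 ran from -0.90 to 0.61 in mdx and -2.70 to -1.89 in Cmah KO, and that of Myh8 in wild type from 1.25 to 1.88.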
